A study of Homo sapiens with 2 samples.

Results

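The aldo-keto reductases of A172, an established human glioblastoma cell line, are described here in the parental line and in a temozolomide-resistant clone of it. The family was represented by 6 genes out of 15603 listed, the carbonyl reductases AKR1A1, AKR1B1, AKR1C1, AKR1C2, AKR1C3 and AKR7A2, found by gene symbol. AKR1C3 was selected on its lower FPKM in the resistant library, so its fall and every count that contains it are descriptions of that choice. Temozolomide (TMZ) is an alkylating drug used against glioblastoma. The parental cells were labelled as kept without TMZ and the resistant cells, a clone labelled A172-r#6, as kept with it, so the effects of cloning, of selection and of the drug itself cannot be told apart. Each group held 1 library made from total RNA with a stranded mRNA kit. There is no replicate spread, so no difference below has an error, and no p-value of the present work is given.

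Aldo-keto reductases are soluble enzymes that reduce aldehydes and ketones with NADPH. They clear reactive aldehydes formed by lipid peroxidation, and individual members act on sugars, steroids and prostaglandins. Several AKR1C and AKR1B genes are known targets of NRF2, the transcription factor of the oxidative stress response, and AKR1C enzymes also inactivate carbonyl-containing anticancer drugs.

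The AKR1C genes sit side by side and resemble each other closely, which bears on how their values can be read. On GRCh38 (GENCODE release 29) AKR1C1 (ENSG00000187134) lies at chr10:4963253-4983283 on the plus strand, AKR1C2 (ENSG00000151632) at chr10:4987400-5018031 on the minus strand and AKR1C3 (ENSG00000196139) at chr10:5035354-5107686 on the plus strand. Their coding sequences are of equal length, 972 bases or 323 codons before the stop. AKR1C1 and AKR1C2 differ at 19 of these bases (98.0% identity), while AKR1C3 differs from AKR1C1 at 83 bases (91.5%) and from AKR1C2 at 87 (91.0%). The first 150 coding bases of the reference transcripts show where reads can and cannot tell the genes apart, with capitals at the bases that differ from AKR1C3.
AKR1C3: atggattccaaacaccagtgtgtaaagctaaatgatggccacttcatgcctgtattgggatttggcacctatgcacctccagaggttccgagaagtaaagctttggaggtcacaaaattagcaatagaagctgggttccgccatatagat
AKR1C1: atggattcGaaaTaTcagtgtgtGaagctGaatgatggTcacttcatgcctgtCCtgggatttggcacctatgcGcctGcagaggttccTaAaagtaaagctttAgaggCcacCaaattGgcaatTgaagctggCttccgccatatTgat
AKR1C2: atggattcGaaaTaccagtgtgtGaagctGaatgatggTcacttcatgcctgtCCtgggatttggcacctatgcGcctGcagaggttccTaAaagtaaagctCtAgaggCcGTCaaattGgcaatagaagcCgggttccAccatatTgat
In this stretch AKR1C1 carried 19 and AKR1C2 carried 21 differences from AKR1C3, and AKR1C1 and AKR1C2 differed from each other at 8 bases. Over the whole coding sequence, 54.5% of the 50-base words of AKR1C1 and 57.2% of those of AKR1C2 also occurred in a transcript of another gene, mostly each other. For AKR1C3 the share was 23.0%. At 100 bases the shares were 21.0% for AKR1C1, 26.7% for AKR1C2 and 9.74% for AKR1C3. On the coding sequence alone, the values of AKR1C1 and AKR1C2 are therefore uncertain, and that of AKR1C3 less so. The sources used here do not say how reads that match several genes were assigned. The reference transcripts of AKR1C1 and AKR1C2 have 6705 and 3756 bases, and their untranslated parts, the larger share, were not compared.

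The windows before the transcription starts follow the same order of likeness and are shown because the 3 neighbouring genes differed in their folds. They are RefSeq promoter windows (GRCh38.p14) cut to the 250 bases before each start, and all 6 members had a window. First and second start of AKR1C3 refer to these windows, not to GENCODE. The AKR1C2, AKR1C3 and AKR1A1 windows lie inside the GENCODE genes, and those of AKR1C1 and AKR1B1 overlap the gene start. The sequence before GENCODE starts further upstream was not searched. Capitals mark ATTGGTTAACCA, the longest run of letters found in every AKR1C1, AKR1C2 and AKR1C3 window.
AKR1C1, chr10:4963165-4963414, plus strand: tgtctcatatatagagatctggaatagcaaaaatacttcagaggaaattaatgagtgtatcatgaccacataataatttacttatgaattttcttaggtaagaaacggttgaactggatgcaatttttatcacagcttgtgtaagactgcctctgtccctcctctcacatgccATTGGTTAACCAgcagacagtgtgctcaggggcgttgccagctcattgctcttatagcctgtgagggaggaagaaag
AKR1C2, chr10:5003858-5004107, minus strand: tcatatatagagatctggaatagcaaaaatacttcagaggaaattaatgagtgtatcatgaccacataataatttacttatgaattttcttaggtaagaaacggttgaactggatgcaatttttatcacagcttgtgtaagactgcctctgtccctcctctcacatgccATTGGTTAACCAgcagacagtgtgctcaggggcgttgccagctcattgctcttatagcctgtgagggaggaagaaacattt
AKR1C3, first annotated start, chr10:5048531-5048780, plus strand: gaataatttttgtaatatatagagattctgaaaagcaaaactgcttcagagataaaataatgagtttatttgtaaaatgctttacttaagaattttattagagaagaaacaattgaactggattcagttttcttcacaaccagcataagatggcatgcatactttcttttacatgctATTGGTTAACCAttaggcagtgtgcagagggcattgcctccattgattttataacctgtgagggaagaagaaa
AKR1C3, second annotated start, chr10:5094164-5094413, plus strand: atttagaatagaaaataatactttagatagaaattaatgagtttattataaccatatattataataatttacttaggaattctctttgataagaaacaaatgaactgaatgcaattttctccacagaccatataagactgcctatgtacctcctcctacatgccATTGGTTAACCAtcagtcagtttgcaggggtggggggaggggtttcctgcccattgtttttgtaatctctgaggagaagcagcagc
The AKR1C2 window was 96.5% identical to that of AKR1C1, counting gaps, and the AKR1C3 windows were 71.4% and 69.5% identical to it. The capital run of 12 bases begins 77 bases before the AKR1C1 start, 81 before the AKR1C2 start, and 73 and 86 before the AKR1C3 starts. On either strand it occurred in 5 of 34943 windows of this length (0.0143%), the 4 above and that of PPFIA2. It was picked after the sequences were seen and holds the reverse of the CCAAT box, a common promoter element. Motifs were searched on both strands. The core of the antioxidant response element bound by NRF2, TGACNNNGC, had no match in any window of AKR1C1, AKR1C2, AKR1C3, AKR1B1 or AKR1A1, against 10.9% of all windows with one. Each of the 2 overlapping AKR7A2 windows held 3 matches. The AP-1 element TGANTCA had no match in the members' windows and 6.59% of all windows held one. The CCAAT box itself matched all 4 AKR1C windows and 1 of the AKR1B1 windows (32.0% of all windows), and TATAAA matched 1 AKR1C3 window (10.8% of all windows). A missing match says only that these letters are not in the window.

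AKR1C3 makes testosterone from androstenedione and prostaglandin F from prostaglandin D. It had 15.2 FPKM (fragments per kilobase, a level scaled for transcript length and depth) in parental cells and 5.13 in the clone. The parental level was thus 2.97 times the resistant one. On the scale of log2 of FPKM plus a pseudocount of 1, which understates the change of low genes, the difference was -1.41. A gene is called here when that log2 fold is at least 1 in size, that is 2-fold, among genes with 1 FPKM or more in either library. By this rule 1 of the 6 members was called lower, AKR1C3, and none higher, beside a background of 3.82% of 13937 tested genes called lower and 4.59% called higher. Nothing is read from that count, since the choice of AKR1C3 made it. A level as far down or further was found for 175 tested genes (1.26%). Fewer cells with the transcript and less transcript per cell cannot be told apart in such bulk RNA. In the authors' deposited table the log2 ratio of AKR1C3 was -1.57 and its q-value 0.00261, where 4.07% of tested genes were lower with a q-value under 0.05. That comparison of single libraries says nothing of the spread between cultures.

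The call of AKR1C3 was narrow under some settings. With a pseudocount of 5 FPKM its log2 fold was -0.999, just short of the threshold, and with the FPKM of AKR1C1, AKR1C2 and AKR1C3 summed, as if their reads could not be assigned, it was -0.98 (18.4 FPKM parental, 8.88 resistant).

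**Figure D1:**
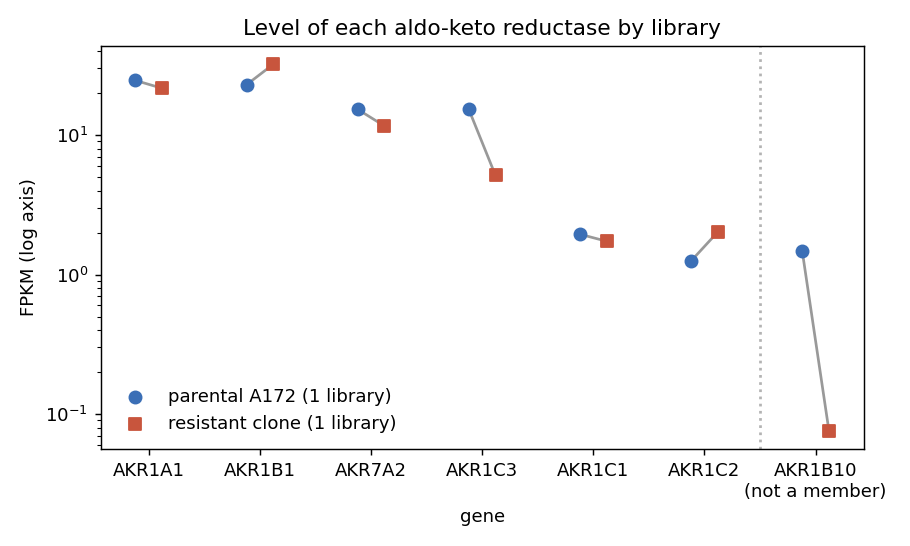
Level of each aldo-keto reductase in FPKM (log axis) in the parental library (circles) and the resistant library (squares), 1 library each, with a line joining the values of a gene. AKR1C3 goes from 15.2 to 5.13 FPKM and AKR1B10, which is not a member, from 1.47 to 0.0758, while the other 5 members shift less.

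The close relatives of AKR1C3 were low in both libraries and were not called. AKR1C1, which inactivates progesterone, had 1.94 FPKM in parental cells and 1.73 in the clone (log2 fold -0.11). AKR1C2, which inactivates dihydrotestosterone, had 1.25 and 2.02 FPKM (0.42). The sum of AKR1C1 and AKR1C2 was 3.20 FPKM in parental cells and 3.75 in the clone (0.18). AKR1C3 was therefore 4.77 times the summed level of its 2 relatives in the parental cells and 1.37 times in the resistant clone. The authors' deposited table gives q-values of 0.909 for AKR1C1 and 0.493 for AKR1C2.

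The genes around the AKR1C cluster were compared next. Of the 10 listed genes on each side (chr10:134465-6254644), 19 were tested and none was called in either direction. Over all tested genes 4.59% were called higher and 3.82% lower. The median log2 fold of the neighbours was 0.07, beside 0.04 over all tested genes. The lowest was IDI1, an isomerase of the sterol pathway, at 27.6 and 13.4 FPKM (-0.99, kept from a call by the pseudocount alone), and the highest PFKFB3, a regulator of glycolysis, at 3.96 and 5.68 (0.43). On the near sides, KLF6 had 37.2 and 44.7 FPKM and NET1 had 4.93 and 5.69. These 4 neighbours were chosen after their values were seen.

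**Figure D2:**
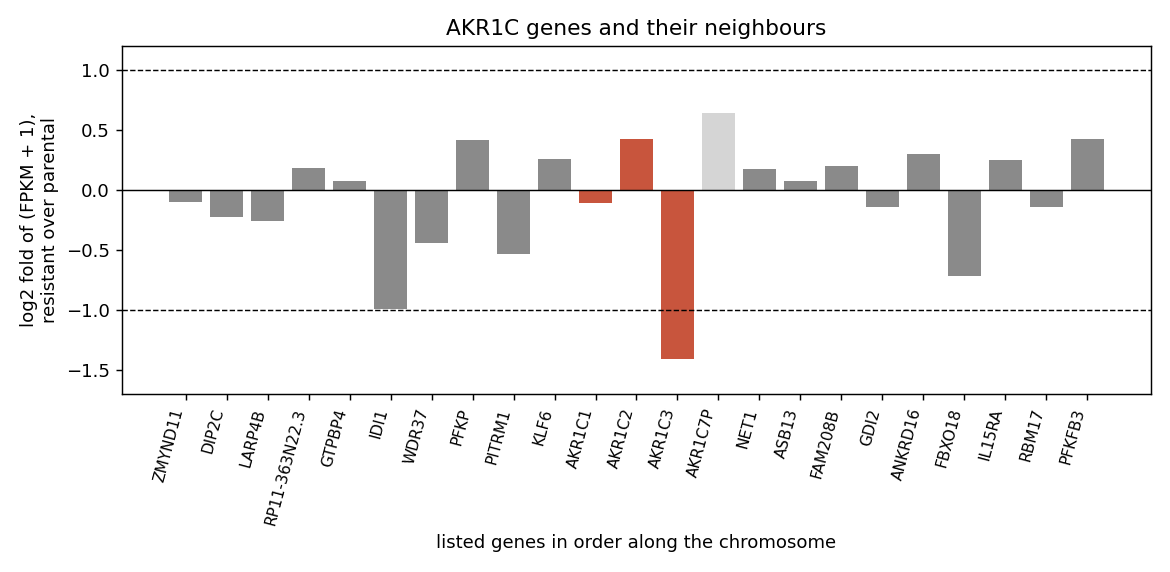
Log2 fold of (FPKM + 1), resistant over parental, for the 3 AKR1C genes (red) and the 10 listed genes on each side (grey; AKR1C7P, below 1 FPKM in both libraries, in pale grey), in order along the chromosome, with dashed lines at 2-fold. AKR1C3 at -1.41 is the only bar beyond a dashed line, and IDI1 ends at -0.99.

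AKR1B1 and AKR1A1 were the most abundant members in both libraries. AKR1B1 (ENSG00000085662, chr7:134442350-134459284, minus strand) is aldose reductase, which turns glucose into sorbitol in the polyol pathway and can also form prostaglandin F. It had 22.9 FPKM in parental cells and 32.1 in the clone (log2 fold 0.47, not called). AKR1A1 (ENSG00000117448, chr1:45550543-45570049, plus strand), the aldehyde reductase that also acts on glucuronate, had 24.6 and 21.6 FPKM (-0.18). Their order was thus AKR1A1 above AKR1B1 in the parental and the reverse in the resistant library. The ratio of AKR1B1 to AKR1A1 went from 0.931 to 1.49, and without replicates these neighbours in the order cannot be separated. No word of 50 bases of the AKR1A1 coding sequence occurred in another gene, and 7.21% of those of AKR1B1 did, in its pseudogenes.

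AKR7A2 (ENSG00000053371, chr1:19303965-19312146, minus strand) reduces the dialdehyde of aflatoxin and turns succinic semialdehyde, a product of GABA breakdown, into gamma-hydroxybutyrate. It had 15.3 FPKM in parental cells and 11.6 in the clone (log2 fold -0.37). AKR1C3 began at nearly the same level but was picked for its fall, so nothing is read from the contrast. Of the 50-base coding words of AKR7A2, 10.2% also occurred in AKR7L or AKR7A3. In the authors' deposited table the q-values were 0.560 for AKR1B1, 0.712 for AKR1A1 and 0.739 for AKR7A2.

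The summed level of the 6 members was 81.2 FPKM in parental cells and 74.2 in the clone (log2 fold -0.13), and without AKR1C3 it was 66.0 and 69.1 (0.07). AKR1C3 made up 18.8% of the sum in parental cells and 6.91% in the clone, and AKR1B1 made up 28.2% and 43.3%. The 5 members other than AKR1C3 had log2 folds from -0.37 to 0.47 with a median of -0.11. The median of all 6 was -0.14, beside 0.04 over all tested genes. The central range of all tested genes, from the lower to the upper quartile, was -0.31 to 0.38. AKR7A2 lay below that range, AKR1B1 and AKR1C2 lay above it, and AKR1A1 and AKR1C1 inside.

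**Figure D3:**
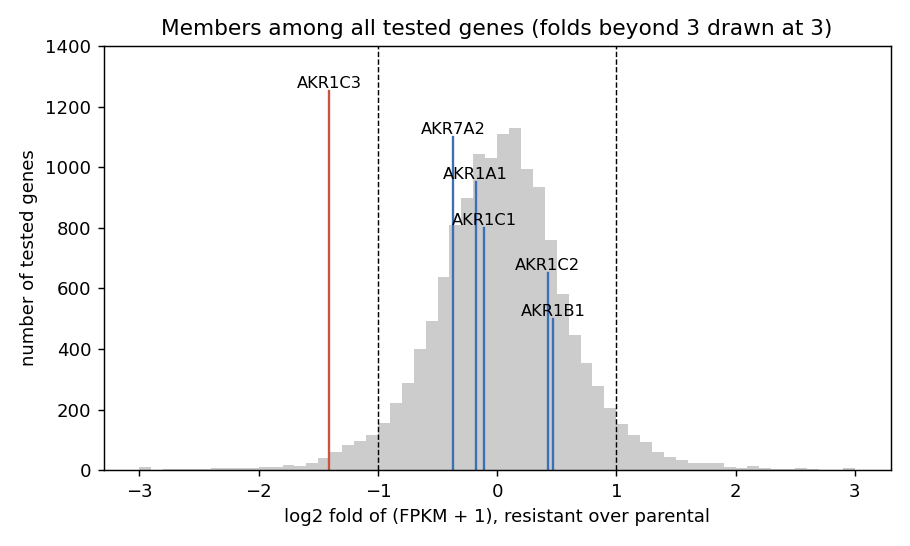
Number of tested genes by log2 fold of (FPKM + 1), resistant over parental (grey bars, 13937 genes), with the 6 members as vertical lines and dashed lines at 2-fold. AKR1C3 (red) stands at -1.41 and the other members (blue) between -0.37 and 0.47; line heights carry no value.

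AKR1B10, which was not among the chosen members, had the largest plain ratio of the family, though AKR1C3 was further down on the log2 scale with the pseudocount. It reduces retinal and aliphatic aldehydes, is a known NRF2 target, and lies next to AKR1B1 at chr7:134527592-134541408 on the plus strand. It had 1.47 FPKM in parental cells and 0.0758 in the clone, a plain ratio of 19.4, and a log2 fold of -1.20 with the pseudocount. The authors' deposited table gives a log2 ratio of -4.27 and a q-value of 0.000642. AKR1B10 passed the filter through the parental library alone, so its call is a description. Both values are low, 28.4% of its 50-base coding words also occurred in AKR1B15 or a pseudogene, and with a pseudocount of 5 FPKM its log2 fold was -0.35. The counts that follow stand beside 3.82% of all tested genes called lower and 4.59% called higher. Of the 12 other genes of the superfamily looked up, 3 were among the listed genes, 1 was called lower, AKR1B10, and none higher. The others were KCNAB2, with 3.02 and 2.17 FPKM, and KCNAB3 (chosen after its values were seen), with 1.61 and 0.827, subunits of potassium channels built on the same fold. Unlike for the members, the deposited loci of KCNAB2 and KCNAB3 differ from those of GENCODE. KCNAB2 and KCNAB3 each share exonic bases with 1 other gene. Of the 18 tested neighbours of AKR1B1, AKR1B10 was the only one called (median 0.12). Around AKR1A1, 2 of 18 were called lower, the kinase subunit PIK3R3 (12.5 and 3.72 FPKM) and the pseudogene RPS15AP10 (2.15 and 0.303), with a median of -0.20. Both were chosen after their values were seen, and RPS15AP10 passed the filter through the parental library alone. Around AKR7A2, none of 16 was called (median 0.20).

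Other genes of the NRF2 response were looked up because several aldo-keto reductases belong to it. Counts of this and the next lists stand beside 4.59% of all tested genes called higher, 3.82% called lower and an overall median of 0.04. Of 27 tested targets outside the family, 6 were called higher and none lower, with a median log2 fold of 0.25. Sulfiredoxin SRXN1 had 8.25 FPKM in parental cells and 40.0 in the clone, and heme oxygenase HMOX1 had 5.53 and 25.003. OSGIN1 had 4.69 and 15.4, thioredoxin reductase TXNRD1 had 144 and 412, GCLM, a subunit of the enzyme that starts glutathione synthesis, had 5.495 and 15.1, and the ferritin chain FTL had 180 and 417. The other ferritin chain, FTH1, the most abundant of the list, had 310 and 589 and stayed just under the threshold. NQO1, a quinone reductase chosen after its values were seen, had 43.9 and 39.1 FPKM, and the carbonyl reductases CBR1 and CBR3, likewise chosen, had 9.84 and 7.83, and 3.28 and 2.89. Of 8 NRF2 regulators, 2 were called higher and none lower (median 0.65): MAFF, a small partner protein of NRF2, at 2.78 and 8.35 FPKM, and SQSTM1, an adaptor that binds KEAP1, at 588 and 1180. With both libraries scaled to the same FPKM sum the SQSTM1 log2 fold was 0.89 and it was no longer called. With a pseudocount of 5 FPKM none of the regulators was called, and GCLM dropped out of the targets, leaving 5. That setting called 220 of all 13937 tested genes higher and 114 lower.

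Other reductases, and genes of pathways in which members take part, were mostly under 2-fold. Of 24 tested carbonyl, retinal, biliverdin, quinone and related reductases, 2 were called higher and none lower (median 0.06). These were TXNRD1, already counted among the NRF2 targets, and the retinal reductase DHRS3, low in both libraries (0.0190 and 1.18 FPKM). The list shares 4 genes with the NRF2 targets. DHRS3 passed the filter through the resistant library alone and was not called with a pseudocount or a filter of 5 FPKM. In the list of the polyol pathway and methylglyoxal removal none of 7 was called (median 0.01). SORD, which oxidises the sorbitol that AKR1B1 makes, had 3.61 FPKM in parental cells and 3.64 in the clone (chosen after its values were seen), and the glyoxalase GLO1, the most abundant, had 82.8 and 95.0. None of 8 genes of the glucuronate and succinic semialdehyde pathways was called (median -0.26), with UGP2, which makes UDP-glucose, at 60.9 and 56.3.

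Steroid and prostaglandin genes include the partners of AKR1C3 in its pathways. Of 18 tested genes of steroid and retinoid interconversion and their receptors, 2 were called lower and none higher (median 0.00). Among them HSD17B7, an oxidoreductase of oestradiol and of sterol synthesis, had 15.0 FPKM in parental cells and 4.33 in the clone. The most abundant of the list, HSD17B12, had 128 and 140. Of 8 tested prostaglandin genes, 1 was called lower and none higher (median 0.07). It was PTGDS, a synthase of the prostaglandin D that AKR1C3 reduces, at 9.11 and 3.03 FPKM. PTGFR, the prostaglandin F receptor, chosen after its values were seen, had 9.50 and 10.7, and the cochaperone PTGES3, the most abundant, had 135 and 169. PTGDS was not called with a pseudocount of 5 FPKM. The absence of higher calls in both lists depended on the pseudocount. A pseudocount of 0.1 FPKM called 1076 of all 13937 tested genes higher and 1029 lower. With 0.1 FPKM, 2 steroid genes were called higher, HSD17B1 (0.531 and 1.54 FPKM) and the glucocorticoid receptor NR3C1 (16.3 and 33.01), beside 2 lower. With the same setting 1 prostaglandin gene was called higher, the transporter SLCO2A1 (0.230 and 1.36), beside 1 lower. HSD17B1 and SLCO2A1 passed the filter through the resistant library alone.

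A list drawn up around the supply of NADPH, the cofactor of all members, held 14 tested genes. Of these 1 was called lower and none higher (median 0.07). The mitochondrial isocitrate dehydrogenase IDH2 had 23.7 FPKM in parental cells and 6.99 in the clone. Its cytosolic counterpart IDH1, the most abundant of the list, had 107 and 94.9. In the other direction, the malic enzyme ME2, chosen after its values were seen, had 7.18 and 15.3, just under the threshold, and was called higher with a pseudocount of 0.1 FPKM. The folate enzyme MTHFD2, likewise chosen, had 66.3 and 121 (0.86). Which cofactor ME2 and MTHFD2 use in these cells was not examined, so their values are not read as NADPH supply.

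**Figure D4:**
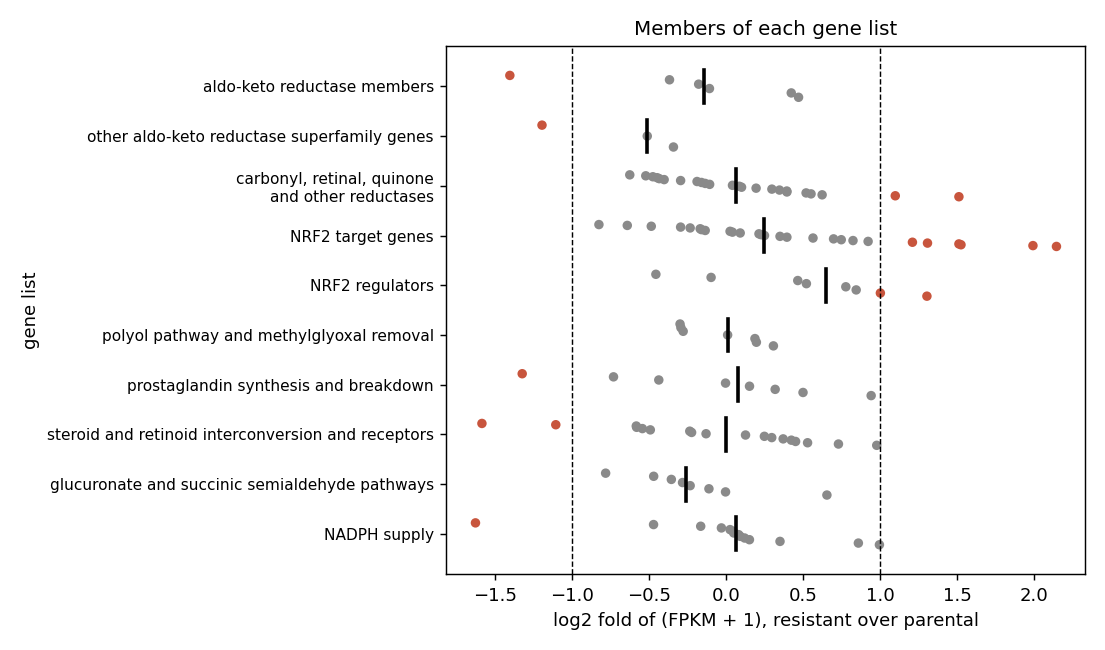
Log2 fold of (FPKM + 1), resistant over parental, for each tested gene of the lists (points; red where at least 2-fold), with the median of each list as a black bar and dashed lines at 2-fold. The aldo-keto reductase median is -0.14 and that of the NRF2 targets 0.25, where 6 of 27 points lie beyond the upper line.

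With only 2 libraries, likeness of pattern means likeness of 2 levels. The genes nearest to AKR1C3 by distance between log2(FPKM + 1) values were MPPE1 (15.3 and 5.31 FPKM, distance 0.04), C1QTNF1 (14.8 and 5.32, 0.06) and MSRA (14.6 and 4.94, 0.07). Those nearest to AKR1B1 were NOL11 (23.2 and 31.6), PPP1R15B (22.5 and 31.5) and MAD1L1 (23.4 and 31.5), all at a distance under that of MPPE1 from AKR1C3.

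The libraries as wholes differed in scale and in some markers. The FPKM sum was 299594 for parental cells and 323932 for the clone. Scaling both to the same sum shifts every log2 fold by -0.11 before the pseudocount, and 43.2% of the calls were then higher against 54.6% as deposited. Each member kept its direction under that scaling. Of 12 glioma and astrocyte markers, 5 were among the genes analysed here, with VIM at 632 and 804 FPKM and the stem cell filament NES lower, at 33.7 and 5.08. CD44 (83.1 and 161) and OLIG2 (1.43 and 3.42) were higher in the clone, and SOX9 (10.3 and 8.25) was lower. Only NES was called, and the list median was 0.35. GFAP, S100B and AQP4 were not among the genes analysed here. None of 6 hepatocyte markers, looked up because liver is rich in AKR1C enzymes, was among them. The listed leukocyte markers (2 of 5) summed to 2.52 and 0.919 FPKM, the endothelial ones (2 of 4) to 1.504 and 0.164, and the neuronal ones (2 of 4) to 15.0 and 18.4. Epithelial markers (4 of 5) summed to 606 and 1609 FPKM, nearly all from KRT8 (213 and 905) and KRT18 (392 and 702). The other listed ones, EPCAM (0.797 and 0.669) and KRT5 (0.566 and 0.236), were below the filter and lower in the clone. The 5 mesenchymal markers summed to 4086 and 4139. Most of that last sum was SPARC (2854 and 3856 FPKM), while COL1A2 (1165 and 245) and COL1A1 (33.5 and 6.53) were called lower and FN1 (4.45 and 10.3) higher. The part of these markers in the values of the aldo-keto reductases was not tested.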

How the data were processed

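RNA of 2 libraries, 1 parental and 1 resistant, was compared. The deposited table holds, per the file headers, 1 FPKM column a library and the authors' log2 ratio with p-values and q-values. The aligner, counting tool, annotation, build and test were not given in the sources used here. Sequencing depth is unknown. For all 6 members the deposited locus equals that of GENCODE release 29 (GRCh38), with a start counted from 0, so GENCODE coordinates are printed, and no other gene shares their exonic bases.

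The log2 fold was computed with a pseudocount of 1 FPKM (pandas 2.3.3), for genes with 1 FPKM or more in either library, and a gene was called at 2-fold. No p-value was computed. Members and lists were chosen with earlier results of these data known. Named genes are all members, the called members and the most abundant gene of each list, the 3 genes nearest to AKR1C3 and to AKR1B1, and called neighbours of the AKR1C cluster. Coding and promoter windows were aligned globally with Biopython 1.88. Alternatives were other pseudocounts, filters, thresholds and scalings, and the 3 AKR1C genes summed. Some genes of the lists are counted but not reported by name here.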

Additional observations from a re-analysis of the deposited data

How the results depend on the processing

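All alternatives were planned. No member changed direction under the other pseudocounts and scalings. The log2 fold of AKR1C3 ranged from -1.55 to -0.98, the latter with the 3 AKR1C genes summed, a setting whose fall is opposite to the fold of AKR1C2 alone (0.42). With a pseudocount of 0.1 FPKM, 1076 genes were called higher and 1029 lower (640 and 532 as reported), and the median of the other aldo-keto reductase genes was -0.88 (-0.51 as reported). With 5 FPKM these were 220, 114 and -0.18, 0 members were called lower, and the glucuronate list had a median of -0.14 (-0.26 as reported). A threshold of 1.5-fold called 2020 genes higher and 1674 lower, one of 3-fold 145 and 112, with 0 members called lower. With both libraries scaled to the same sum, the medians were -0.043 for the carbonyl and other reductases, 0.14 for NRF2 targets, 0.54 for NRF2 regulators, -0.030 for prostaglandin genes and -0.038 for NADPH supply. The median of all tested genes moved as well under that scaling, to -0.056 from 0.042 as reported. With a filter of 5 FPKM 282 genes were lower, and the medians were -0.27 for the 4 members left, 0.19 for the polyol and methylglyoxal list, -0.22 for the steroid list (0.13 with no filter) and -0.11 for the glucuronate list. The median of all tested genes was 0.079 with the filter of 5 FPKM and 0.029 with no filter. The filter of 5 FPKM left no other aldo-keto reductase gene, so it gives no value there. The filters change which genes are tested, and the other settings change the folds or the threshold directly. With 1 library per group, no paired analysis was possible, and no library can be left out. Depth is unknown, so the precision of AKR1C1, AKR1C2 and AKR1B10, at about 2 FPKM or less, cannot be stated.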

Other observations

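Pseudogenes of the family were also among the listed genes. AKR1C7P, beyond AKR1C3 on chromosome 10, was listed at 0 FPKM in the parental and at 0.561 in the resistant library, below the filter in both. AKR1B1P1, a processed copy of AKR1B1 on chromosome 1, had 1.12 and 0.688 FPKM, and 2.66% of the 50-base coding words of AKR1B1 occurred in it. These values were looked up after the data were seen. The deposited locus of AKR1B1P1 (chr1:224385142-224740549, start counted from 0) is far wider than that of GENCODE (chr1:224574434-224575389).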
